A study of Caenorhabditis elegans with 2 samples.

Results

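The 841 distal intergenic calls on the autosomes of Caenorhabditis elegans were examined in a chromatin immunoprecipitation (ChIP-seq) experiment on the protein ZK546.5. They were chosen by pooled signal and by place. All calls of the pooled list were ranked by their deposited signal value, and the first 5000 were kept. A call was a member if it lay on an autosome, its summit was outside every annotated gene, and the summit was more than 1000 bp from the 5′ end of any protein-coding gene. This left 841 members among 4099 autosomal calls of the first 5000, and 30000 calls in the whole pooled list. The other 3258 autosomal calls were the main comparison set. The 4389 autosomal calls that met the same location rule but ranked below 5000, called lower-ranked distal calls here, were the other comparison set.

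All samples belonged to 1 group, with 2 biological replicates. The animals were L3 larvae of strain OP231, of pooled sex and taken whole, with the genotype unc-119(ed3) III and the transgene wgIs231. Every animal therefore carried the unc-119 mutation and the transgene, which adds ZK546.5 with GFP and FLAG at its C terminus. The promoter of the transgene and the cells that express it are not given in the sources used here, and whole animals mix all tissues. Both replicates were called against the same 1 control file. The depth is unknown, since the lists give no counts of reads. Where a share has an interval, it is an exact (Clopper-Pearson) 95% interval that covers counting error only.

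A transcription factor binds DNA through a domain that reads short words of bases, and zinc fingers are among the commonest such domains in animals. RefSeq annotates ZK546.5 as a protein with a zinc finger domain of the C2H2 type. In the compact genome of C. elegans most known binding sites of transcription factors lie just before gene starts, while distal sites can be enhancers or starts of non-coding RNA. Chromosome IV holds large clusters of piRNA genes, which encode the short 21U-RNAs that silence foreign sequence in the germ line. Many of these genes share an upstream word, CTGTTTCA.

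The sequences below are the 100 bp centred on the summits of 10 members, from the RefSeq genome of build ce11 (WBcel235). They were picked because the members were strong or held the words marked below. They are not a representative sample of the members. In the first 5 lines, capitals mark any of 7 words, led by AGAGAC and ACGCAG, on either strand, which were commoner at the strongest members than at weaker distal calls. The next 4 lines hold strong members without any of these words. In the last line capitals mark the upstream word of piRNA genes.
between T04C4.3 and fnip-2, chrIV:2219589-2219688, plus strand: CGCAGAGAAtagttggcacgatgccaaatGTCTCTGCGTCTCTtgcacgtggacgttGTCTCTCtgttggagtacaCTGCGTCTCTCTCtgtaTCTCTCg
between ogt-1 and nuo-4, chrIII:7155867-7155966, plus strand: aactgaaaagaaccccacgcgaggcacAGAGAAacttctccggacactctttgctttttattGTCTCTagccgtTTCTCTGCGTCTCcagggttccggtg
between zipt-15 and madf-1, chrIV:828529-828628, plus strand: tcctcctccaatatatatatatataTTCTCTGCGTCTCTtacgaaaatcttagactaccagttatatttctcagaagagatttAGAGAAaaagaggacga
between tin-9.1 and nhr-105, chrIV:7047989-7048088, plus strand: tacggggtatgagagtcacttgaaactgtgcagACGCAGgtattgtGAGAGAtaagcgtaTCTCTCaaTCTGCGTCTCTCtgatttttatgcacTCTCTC
between irld-55 and Y37A1B.7, chrIV:14033242-14033341, plus strand: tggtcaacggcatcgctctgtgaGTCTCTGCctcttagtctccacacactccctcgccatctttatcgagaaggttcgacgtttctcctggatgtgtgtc
between sup-26 and R10E4.3, chrIII:4282214-4282313, plus strand: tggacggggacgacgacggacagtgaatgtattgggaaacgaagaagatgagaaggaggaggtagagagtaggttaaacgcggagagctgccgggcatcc
between C17C3.24 and ins-13, chrII:5543756-5543855, plus strand: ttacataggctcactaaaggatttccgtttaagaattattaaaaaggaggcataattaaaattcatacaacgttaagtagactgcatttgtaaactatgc
between mdt-29 and pot-3, chrIII:13779017-13779116, plus strand: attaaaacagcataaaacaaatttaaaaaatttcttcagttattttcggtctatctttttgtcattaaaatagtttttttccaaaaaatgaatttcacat
between nhr-237 and nhr-238, chrV:1627914-1628013, plus strand: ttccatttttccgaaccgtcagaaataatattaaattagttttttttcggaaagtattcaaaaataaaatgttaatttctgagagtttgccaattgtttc
between fbxa-83 and Y67A10A.3, chrIV:14327764-14327863, plus strand: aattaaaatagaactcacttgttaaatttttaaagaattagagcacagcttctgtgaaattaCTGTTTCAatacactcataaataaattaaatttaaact

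The first 4 of these hold the run CTGCGTCTC, in which several of the words overlap. Among all 841 members the run was at only 9 (1.07%), so it is over-represented in the sequences shown. At the member between T04C4.3 and fnip-2, 49 of the 100 bases fell within one of the words. The members between mdt-29 and pot-3 and between nhr-237 and nhr-238 were instead rich in A and T. The member between sup-26 and R10E4.3 was rich in G and C and held none of the words.

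Distal intergenic calls were few among the very strongest calls. Of the 197 autosomal calls ranked 1 to 250, 15 were distal (7.61%, 95% interval 4.32 to 12.2). The share was 15.7% (34 of 216, 11.2 to 21.3) at ranks 251 to 500 and 21.2% (88 of 416, 17.3 to 25.4) at ranks 501 to 1000. It then stayed between 20.8% and 22.3% in each band down to rank 30000. Sequence that meets the location rule made up 19.4% of the autosomes (16042623 of 82553665 bp). Over the whole first 5000 the members were 20.5% of autosomal calls (19.3 to 21.8), against 21.3% of the 20622 autosomal calls ranked below. Per Mb of sequence there were 52.4 members in the sequence that meets the rule, against 49.0 other calls in the rest of the autosomes. From rank 501 on, the share of distal calls was thus within 3 percentage points of the share of sequence.

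**Figure D1:**
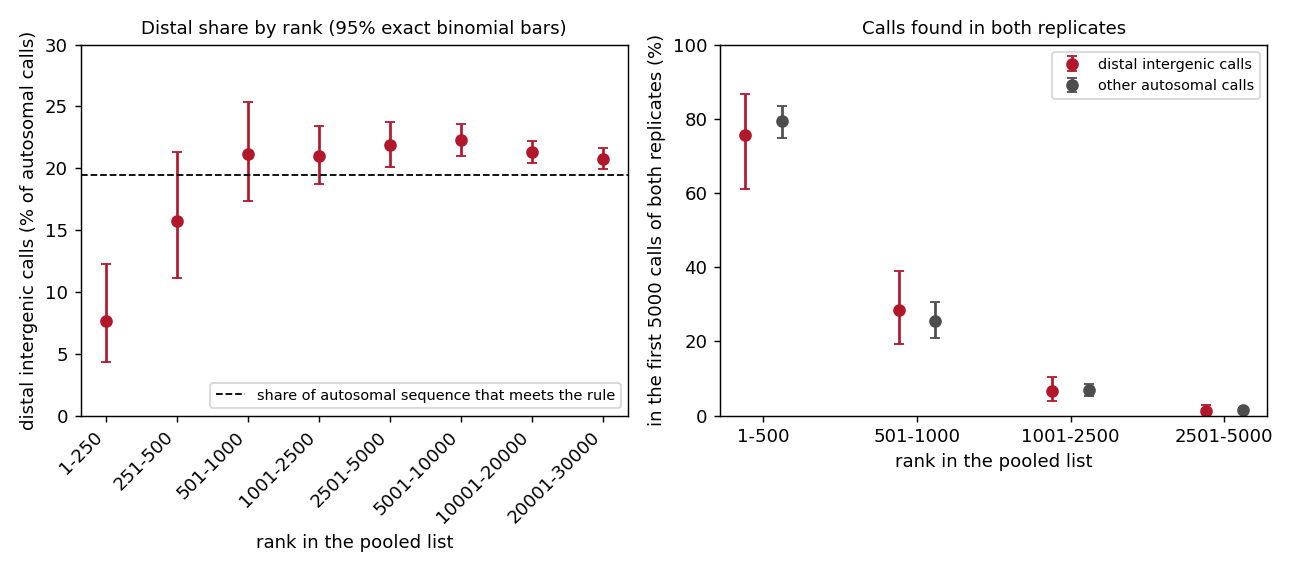
Left, the share of autosomal calls that were distal and intergenic (%) by rank in the pooled list, with 95% exact binomial bars and a dashed line at the 19.4% of autosomal sequence that meets the location rule. Right, the share of distal intergenic calls (red, left of each pair) and of other autosomal calls (grey) that were in the first 5000 calls of both replicates (%), which fell to 1.34% and 1.44% at ranks 2501 to 5000.

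The members were mostly weak calls. Their pooled signal ran from 23.6 to 217 with a median of 26.9, and that of the other autosomal calls reached 1408 with a median of 27.4. The signal values come from the peak caller, on a scale that was not stated. At the limit of the choice, the weakest member (rank 4997) had a signal of 23.583 and the strongest distal call outside (rank 5001) had 23.580. The member nearest to a coding 5′ end was 1001 bp away with a signal of 23.99, and an intergenic call at 1000 bp, which was left out, had 28.1. All but 1 of the 841 intervals had the same width, 344 bp. The median distance from summit to coding 5′ end was 2737 bp, with 64.9% of members over 2000 bp away and 21.3% over 5000 bp. The farthest, at 28585 bp, lay on chromosome III in the gap between sql-1 and aakg-1, 90 bp from the edge of sql-1.

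Of the 841 members, 16 overlapped a peak of the submitters' thresholded set (1.90%, 1.09 to 3.07), against 198 of 3258 other autosomal calls (6.08%, 5.28 to 6.95). By summit, 15 members matched, and they were the 15 strongest. The 16th was a weak call whose summit lay 204 bp from that of the strong member by acbp-6. The set was derived from the same lists, so this is a description and was not tested.

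The strongest member was a call with a summit at position 6835392 of chromosome I (rank 58 in the pooled list). It lay 1077 bp upstream of ahcy-1, which encodes the enzyme that breaks down S-adenosylhomocysteine after methylation reactions. The summit was 693 bp from teg-4, a splicing factor gene, and 114 bp from the non-coding gene K02F2.11. Its signal was 118 in replicate 1, 99.6 in replicate 2 and 217 in the pooled list, so it was strong in both replicates.

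The next member lay by F40E3.3 on chromosome I (summit 2639826, rank 96), with signals of 56.8 in replicate 1, 61.7 in replicate 2 and 118 pooled. It was 407 bp beyond the 3′ end of the gene, and 46.2% of its words of 30 bases occurred elsewhere in the genome. The third, between the divergent genes T04C4.3 and fnip-2 on chromosome IV (summit 2219639), had 25.2 in replicate 1, 72.3 in replicate 2 and 98.8 pooled. It thus rested more on replicate 2. Its 200 bp were 54.0% G and C, and the nearest gene of any kind was 2783 bp away. fnip-2 is named for folliculin-interacting proteins.

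A further pair of strong members lay where genes on opposite strands ended towards each other. On chromosome I at 12654701 a summit lay 46 bp beyond the 3′ end of atp-1, which encodes the alpha subunit of mitochondrial ATP synthase. Its signals were 47.2 in replicate 1, 47.5 in replicate 2 and 97.2 pooled. At 16980 on the same chromosome a summit lay 143 bp beyond the 3′ end of nlp-40, with 45.7 in replicate 1, 38.7 in replicate 2 and 86.3 pooled. nlp-40 encodes a neuropeptide that the intestine releases in the defecation rhythm. In replicates 1 and 2 the member by atp-1 ranked 109 and 139, and the member by nlp-40 ranked 112 and 195.

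On chromosome II the strongest member (summit 11974773) lay 1041 bp upstream of acbp-6, an acyl-CoA-binding protein gene. It had 37.3 in replicate 1, 53.6 in replicate 2 and 93.9 pooled. A member 1058 bp downstream of the 5′ end of ins-13, an insulin-like peptide gene, had 36.3, 28.6 and 79.5 in the same order (summit 5543806). Its nearest gene was the spliced leader RNA gene sls-2.2, at 99 bp, whose product is joined to the front of other messenger RNAs. A member between vig-1 and jip-1 (summit 1323489) had 47.5, 24.3 and 66.7. It lay 416 bp beyond the 3′ end of vig-1, a gene of the RNA interference machinery.

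Chromosome III held a member 4735 bp from its end, between mdt-29 and pot-3 (summit 13779067). Its signals were 40.8 in replicate 1, 41.9 in replicate 2 and 69.7 pooled. mdt-29 encodes a Mediator subunit, and pot-3 encodes a relative of the proteins that bind single-stranded telomere DNA. A member between sup-26, an RNA-binding protein gene, and R10E4.3 (summit 4282264) had 32.7, 46.3 and 66.4. In it 56.0% of the bases were G or C.

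On chromosome IV the member by K08F11.1 (summit 4728189) had 39.8 in replicate 1, 15.7 in replicate 2 and 82.8 pooled. It was weak in replicate 2, at rank 2055, and 54.4% of its words of 30 bases occurred elsewhere. A member between irld-55 and Y37A1B.7 (summit 14033292) was 10488 bp from the nearest coding 5′ end but 35 bp from the non-coding gene Y37A1B.336. Its signals were 28.5, 33.04 and 62.8. The strongest member on chromosome V lay between the nuclear hormone receptor genes nhr-237 and nhr-238 (summit 1627964), with 68.1 in replicate 1, 21.2 in replicate 2 and 61.0 pooled. It rested more on replicate 1. All 13 members described here matched a thresholded peak.

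**Figure D2:**
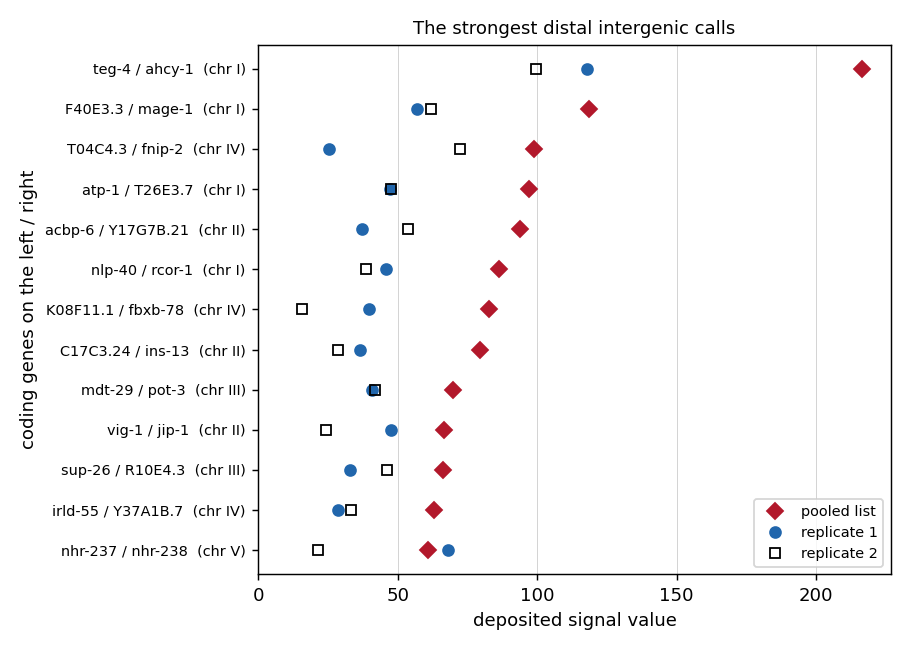
Deposited signal value of the 12 strongest members and of the strongest on chromosome V, named by the coding genes on either side, in the pooled list (red diamonds), replicate 1 (blue circles) and replicate 2 (open squares). The replicates were close at atp-1 / T26E3.7 (47.2 and 47.5) and far apart at T04C4.3 / fnip-2 (25.2 and 72.3).

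Strong members often lay by the 3′ ends of coding genes. Of the 15 members with a thresholded peak, 9 had a coding 3′ end within 500 bp (60.0%, 32.3 to 83.7). Among the 137 members ranked 1 to 1000 the count was 51 (37.2%, 29.1 to 45.9), and among all 841 it was 183 (21.8%, 19.0 to 24.7). Among lower-ranked distal calls it was 17.1% (751 of 4389, 16.0 to 18.3), and such places made up 14.3% of the sequence that meets the location rule. The share was thus higher in the stronger subsets. Distance to genes entered the choice of members and this count was chosen after its values were seen, so no test was made. The genes concerned included atp-1, nlp-40, mdt-29, vig-1 and nhr-238, whose 3′ end was 141 bp from the summit. They also included nuo-4, a gene for a subunit of respiratory complex I, at the member between ogt-1 and nuo-4 (rank 212, pooled signal 60.4).

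The replicates shared few of the weaker members. Counting a summit within 200 bp among the first 5000 calls of a replicate, replicate 1 held 384 of the 841 members (45.7%, 42.3 to 49.1). Replicate 2 held 257 (30.6%, 27.5 to 33.8), and 85 were in both (10.1%, 8.15 to 12.3). The remaining 285 were in neither (33.9%). Among the other autosomal calls 44.6% were in replicate 1, 37.2% in replicate 2 and 14.2% (13.0 to 15.4) in both.

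Set side by side at equal rank, members and other calls were found in both replicates at close shares. At ranks 1 to 500, 37 of 49 members were in both (75.5%, 61.1 to 86.7), against 289 of 364 other calls (79.4%, 74.9 to 83.4). At ranks 501 to 1000 it was 25 of 88 members (28.4%, 19.3 to 39.0), against 84 of 328 other calls (25.6%, 21.0 to 30.7). At ranks 1001 to 2500 it was 6.61% of 257 members against 6.83% of 967 other calls, and at ranks 2501 to 5000 it was 1.34% of 447 against 1.44% of 1599. The intervals overlapped in every band. Both replicates went into the pooled list, so these shares describe the lists and were not tested.

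When all 30000 calls of each replicate were allowed, 465 members had a call in both (55.3%, 51.9 to 58.7), against 59.8% of the other calls. Across those 465 members Spearman's rho between the signals of the replicates was -0.08, and across the 1949 other calls it was 0.14. Both replicates went into the pooled list that chose these calls, and they share 1 control, so these are descriptions only.

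**Figure D3:**
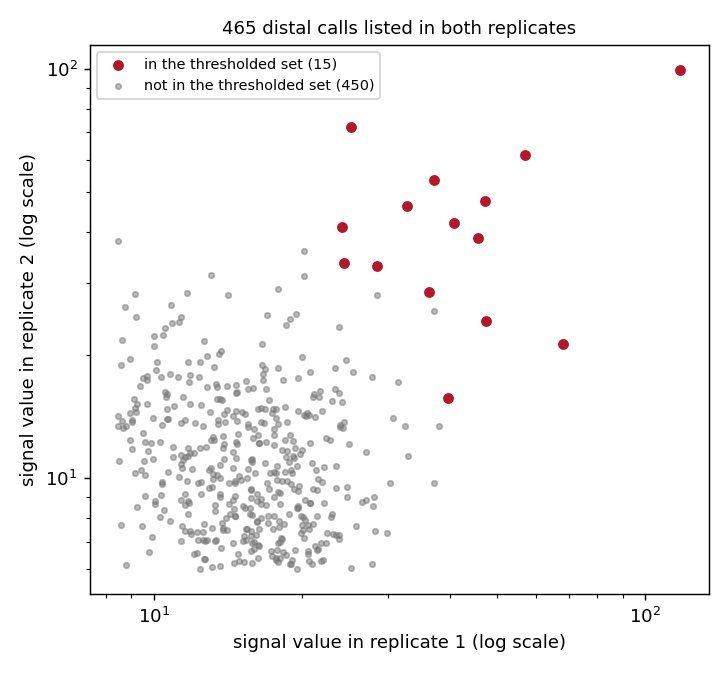
Signal value in replicate 1 (horizontal, log scale) and replicate 2 (vertical, log scale) of the 465 members listed in both replicates. Members in the thresholded set (red) lie at the upper right, except the one by K08F11.1, which had only 15.7 in replicate 2. The remaining members (grey) form a band in which the replicates do not rise together, with a rho of -0.08 over all points.

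The sequence of the members was poorer in G and C than that of the other calls of the first 5000. In 200 bp around the summit the median GC content was 29.0% at members, 31.0% at other autosomal calls and 30% at lower-ranked distal calls. Over all bases that meet the location rule GC content was 33.9%. A window above the GC share of the autosomes (35.5%) was found at 166 of 841 members (19.7%), against 964 of 3258 other calls (29.6%). The odds ratio was 0.59 (95% interval 0.48 to 0.71; two-sided adjusted p = 4.84e-08 by Fisher's exact test, Benjamini-Hochberg adjustment over 8 property tests). Against lower-ranked distal calls, of which 20.1% were above, the odds ratio was 0.98 (0.81 to 1.18; adjusted p = 0.972 by Fisher's exact test). Calls are not independent replicates, so these and the following tests describe this experiment only. The difference from the other calls passed with either replicate list alone (odds ratios 0.51 and 0.59) and against other intergenic calls alone (0.38). It was lost where the whole interval had to lie outside genes (0.80, adjusted p = 0.279 by Fisher's exact test) and without chromosome IV (0.76, adjusted p = 0.0851). The last setting was chosen after the data were seen. With whole intervals outside genes, members whose interval touched a gene were counted among the other calls.

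Within the members GC content moved with rank and with replicate. Among the 137 members ranked 1 to 1000, a limit chosen after the data were seen, 45 were above 35.5% (32.8%). This was less often than at the 692 other autosomal calls of those ranks (49.9%, odds ratio 0.49) and more often than at the 5093 distal calls ranked below (19.7%, odds ratio 2.01; Fisher's exact tests, each with an adjusted p of 0.00129). Members found in both replicates had a median GC content of 31.5% and members found in replicate 2 alone 30.5%. In replicate 1 alone the median was 27.5%, and in neither it was 29.0%. The replicate lists differed in the same way as a whole, since the median over autosomal calls of the first 5000 was 30% in replicate 1 and 33.5% in replicate 2. With the list of replicate 1 alone, distal calls were above 35.5% less often than lower-ranked distal calls (odds ratio 0.68, adjusted p = 3.69e-04 by Fisher's exact test), and with replicate 2 alone the odds ratio was 1.06 (adjusted p = 0.668). The part of the replicates' difference in these results was not tested.

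**Figure D4:**
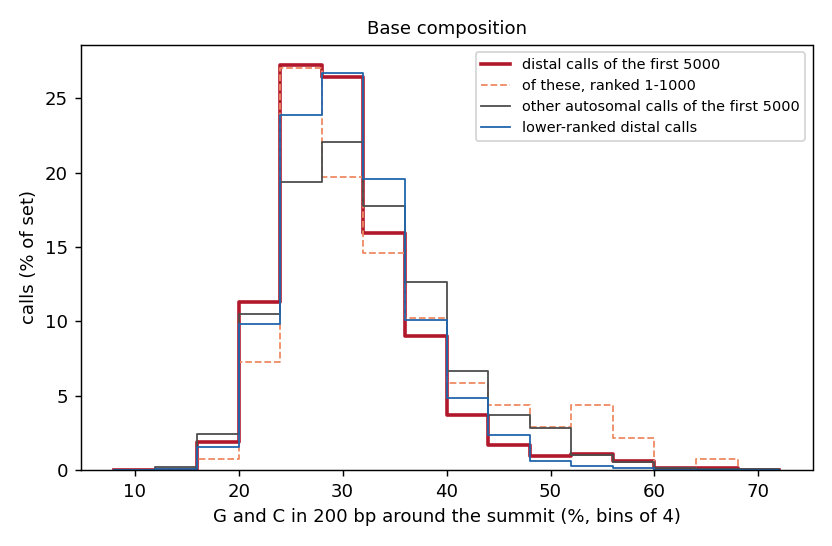
Share of calls (%) by GC content in 200 bp around the summit (%, bins of 4), for the distal calls of the first 5000 (red), those of them ranked 1 to 1000 (dashed), the other autosomal calls of the first 5000 (grey) and lower-ranked distal calls (blue). The red and blue lines lie close together (medians 29.0% and 30%), and the dashed line has a longer right tail.

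Members were concentrated on chromosome IV. It held 303 of the 841 (36.0%), against 748 of 3258 other autosomal calls (23.0%, odds ratio 1.89, adjusted p = 2.63e-13 by Fisher's exact test over 5 chromosomes). Chromosome I held 125 (14.9% against 21.6%, odds ratio 0.64, adjusted p = 2.79e-05 by the same exact test) and chromosome II 105 (12.5% against 16.5%, odds ratio 0.73, adjusted p = 0.00675 by Fisher's exact test). Chromosomes III (17.4% against 18.8%) and V (19.3% against 20.1%) did not pass. With the first 10000 calls III passed as well (odds ratio 0.81, adjusted p = 0.00442 by Fisher's exact test). Chromosome IV also has more room for such calls, with 26.4% of the sequence that meets the location rule. Such sequence made up 24.2% of chromosome IV, against 16.3% (I) to 19.6% (II) of the other autosomes. The tests against other autosomal calls thus partly reflect where such sequence lies. Per Mb of that sequence there were 71.6 members on IV, 59.9 on III, 50.8 on I, 41.4 on V and 35.0 on II. Against lower-ranked distal calls, a comparison added after the data were seen, IV still stood above (36.0% against 29.4%, odds ratio 1.36, adjusted p = 8.24e-04 by Fisher's exact test). II stood below (odds ratio 0.72, adjusted p = 0.00602 by the same exact test), and the share on I was close (14.9% against 15.5%). With the first 1000 calls, against distal calls ranked below, IV did not pass (35.8% against 30.3%, odds ratio 1.29, adjusted p = 0.313 by Fisher's exact test). The only chromosome that passed there was V (odds ratio 0.51, adjusted p = 0.0233 by the same exact test). The call for II against other autosomal calls was lost with replicate 1 alone (odds ratio 0.91), with the first 2500 calls (0.85) and with the first 1000 (0.77).

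**Figure D5:**
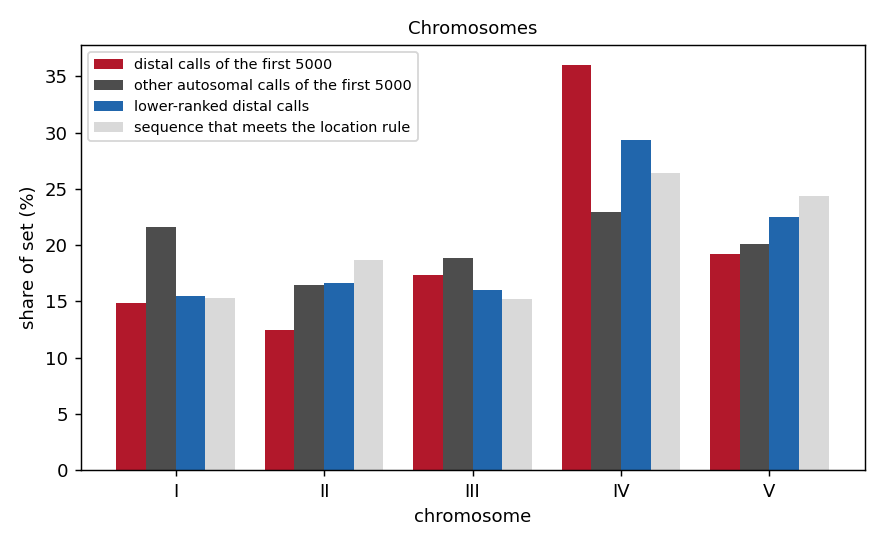
Share of each set on the 5 autosomes (%), for the distal calls of the first 5000 (red), the other autosomal calls of the first 5000 (grey), lower-ranked distal calls (blue) and the sequence that meets the location rule (light grey). On chromosome IV the members stand at 36.0%, above the 26.4% of sequence.

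The odds ratio for chromosome IV changed with what counts as outside genes. Of the 303 members there, 166 had an interval that touched an annotated gene although the summit did not, and for 138 that gene was a piRNA gene. On the other autosomes 98 of 538 intervals touched a gene, and 3 touched a piRNA gene. When the whole interval had to lie outside genes, 577 members were left, of which 137 were on IV. The odds ratio for IV was then 0.89 (adjusted p = 0.350 by Fisher's exact test), and 0 of the 5 chromosomes passed. Members whose interval touched a gene, 166 of them on IV, were not dropped in this setting. They joined the comparison set, which then held 3522 calls, so part of the fall was built into the setting. The share of IV in sequence that meets this stricter rule was not measured. The test therefore cannot decide whether IV held an excess under it.

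A piRNA gene was near many of the members on chromosome IV. Of all 841 members, 178 had the 5′ end of a piRNA gene within 500 bp (21.2%, 18.5 to 24.1), against 10.8% of the sequence that meets the rule. On IV it was 170 of 303 (56.1%, 50.3 to 61.8), against 38.7% of such sequence. Lower-ranked distal calls on IV, compared after their values had been seen, had a close share, 682 of 1289 (52.9%, odds ratio 1.14, p = 0.337 by Fisher's exact test). The members near piRNA genes on IV had a median GC content of 26.0%, and 4 of 170 were above 35.5%. The other members on IV had 30%, with 28 of 133 above. The upstream word CTGTTTCA was within 50 bp of the summit at 24 of the 170 members near piRNA genes (14.1%, 9.26 to 20.3), and at 1 of the 133 others on IV. The share near piRNA genes was 14.0% at other autosomal calls and 14.7% at lower-ranked distal calls. It was 7.77% in tiles of 100 bp that lay wholly in such sequence and thus touched no piRNA gene. The strongest of the 24 was the member between fbxa-83 and Y67A10A.3, 199 bp from the 5′ end of 21ur-2151. Its signal was 35.2 in replicate 1 and 34.8 pooled, and no call of replicate 2 lay within 200 bp.

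Words of 6 bases were counted on both strands in the 100 bp at each summit. Of all words, 11 were commoner (0.529%) and 21 rarer (1.01%) at members than at other autosomal calls. The test was Fisher's exact test at an adjusted p below 0.05, and 91 and 169 words had an unadjusted p below that limit. Of the 11 words, 10 held at most 2 G or C letters, and of the 21 words 17 held at least 4. The leading word among those more frequent was CTCTAA, at 7.61% of members against 3.84% of other calls (odds ratio 2.07, adjusted p = 0.00730 by Fisher's exact test). It was followed by ACTCTA (4.52% against 1.87%) and AAATAG (16.2% against 11.0%). The less frequent words were led by ATGCGC, at 0.238% of members against 2.89% of other calls (odds ratio 0.10, adjusted p = 2.48e-04 by Fisher's exact test). GCGCAC (0.832% against 3.56%) and CGCGTC (0.238% against 2.21%) came next. Among the more frequent words were also AAACAG (13.1% against 8.47%) and GAAACA (15.2% against 10.8%), which are parts of CTGTTTCA read on the other strand. CTGTTTCA itself was at only 29 members (3.45%, against 1.47% of other calls), while AAACAG was at 110 and GAAACA at 128. Its part in the calls for these words was not tested. The calls for most of these words were lost when a replicate was left out. With replicate 2 alone and replicate 1 alone, CTCTAA had adjusted p-values of 0.134 and 0.151 by Fisher's exact test. ACTCTA had 0.349 and 0.230, and AAATAG 0.531 and 0.510, by the same exact test. Among the rarer words ATGCGC had 0.134 and 0.381, and CGCGTC 0.0715 and 0.355, none of them past the limit. Of the 6 leading words, GCGCAC alone passed with each replicate (0.00484 for replicate 2 and 7.42e-04 for replicate 1). Of the 11 commoner words 1 was also called with replicate 2 alone and 1 with replicate 1 alone, and of the 21 rarer words 1 and 3 were. The counts also varied with the setting. With replicate 1 alone 2 words were commoner and 11 rarer, and without chromosome IV, a setting added after the data were seen, 1 word in each direction passed. With whole intervals outside genes, or with 5′ ends over 500 bp away, 0 words passed in either direction by Fisher's exact test. Against lower-ranked distal calls 0 words passed in either direction (0%), with 67 higher and 47 lower at an unadjusted p below 0.05.

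In the pooled list some words set the strongest members apart from weaker distal calls. The comparison was not repeated with either replicate list alone. Among the 137 members ranked 1 to 1000, again a limit chosen after the data were seen, 7 words (0.337%) were more frequent than at the 5093 distal calls ranked below, and 0 were less frequent (0%; 119 and 23 at an unadjusted p below 0.05, Fisher's exact test). AGAGAC led, at 17 of 137 members (12.4%) against 2.95% (odds ratio 4.77, adjusted p = 0.00196 by Fisher's exact test). ACGCAG was at 12 (8.76%) against 1.51% (odds ratio 6.45). AGAGAA was at 24.1% against 10.1%, GAGAGA at 15.3% against 5.16% and CGCAGA at 9.49% against 2.12%. CTCTGC was at 8.76% against 2.16% and CGTCTC at 8.03% against 1.87%. The words overlap, and joining ACGCAG and CGTCTC gives the run CTGCGTCTC. It was built from words called at these same members, so its shares are a description and were not tested. The run was at 7 of the 137 (5.11%, 2.08 to 10.2). It was at 3.32% of the 692 other autosomal calls of those ranks, at 0.524% of distal calls ranked below 5000 and at 0.571% of 146779 tiles of 100 bp that meet the location rule. Against the other autosomal calls of ranks 1 to 1000, 0 words passed in either direction, with 68 higher and 77 lower at an unadjusted p below 0.05. ACGCAG was at 8.53% of those calls, AGAGAC at 8.38% and GAGAGA at 11.6%, so these words were not confined to distal calls.

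Among all 841 members, 9 held the run CTGCGTCTC. They included the members by ahcy-1 and nlp-40, both named above, and the one between T04C4.3 and fnip-2. The member between ogt-1, which encodes the enzyme that adds N-acetylglucosamine to nuclear proteins, and nuo-4 had 24.1 in replicate 1 and 41.0 in replicate 2. The member between zipt-15 and madf-1 was much weaker (rank 1134), with 15.8 in replicate 1 and 11.1 in replicate 2. The member between tin-9.1 and nhr-105 (rank 3772) had 11.998 in replicate 2 and no call in replicate 1. The run was at 7 of the 137 members ranked 1 to 1000 (5.11%) and at 2 of the 704 ranked below (0.284%, 0.0344 to 1.02). The 0.571% of tiles lies within that last interval.

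Of the other words counted, 3 were at close shares in all sets and the others differed more. TGATAA, read by GATA factors, was at 9.51% of members, 9.18% of other autosomal calls, 9.27% of lower-ranked distal calls and 8.65% of tiles. The forkhead word TGTTTAC was at 1.43%, 1.38%, 1.23% and 1.30% in the same order, and TGANTCA, read by AP-1 factors, at 2.73%, 2.36%, 2.14% and 2.69%. The E-box CACGTG was at 0.595% of members (95% interval 0.193 to 1.38) and 1.41% of other calls (1.04 to 1.88), with 0.866% at lower-ranked distal calls and 1.41% in tiles. CGCGCG was at 0.832%, 1.63%, 0.501% and 0.690% in the same order of sets. The word GACGCA was at 2.14% of members (1.27 to 3.36) and 4.08% of other calls (3.43 to 4.82), intervals that do not overlap, with 1.64% at lower-ranked distal calls and 2.08% in tiles. ACGCAG, named above, was at 2.26% of members, 3.38% of other calls, 1.59% of lower-ranked distal calls and 1.96% of tiles. GAGAGAGA was at 1.78% of members, 1.38% of other calls, 0.911% of lower-ranked distal calls and 0.940% of tiles. These are shares without a test.

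Repeated sequence was rare at the members. A window of 200 bp of which at least 50% of the words of 30 bases occur elsewhere in the genome was found at 2 of 841 members (0.238%). The share was 0.338% at other autosomal calls and 0.501% at lower-ranked distal calls, against 17.4% of 67649 tiles of the sequence that meets the rule. The main comparison did not pass against either set (odds ratio 0.84 against other calls and 0.58 against lower-ranked distal calls, adjusted p = 1.00 and 0.656 by Fisher's exact test). With words of 20 bases it did not pass against lower-ranked distal calls either (adjusted p = 0.0731 by the same exact test). Under an alternative definition that did pass, any repeated word at all was found at 7.13% of members and at 11.8% of lower-ranked distal calls (odds ratio 0.58, adjusted p = 2.11e-04 by Fisher's exact test), and in 32.7% of tiles. How repeated reads were treated before calling is not given in the sources used here.

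Whether members lay farther out on the chromosomes than other calls depended on the setting. Outside the central one of 3 equal parts of the chromosome lay 67.4% of members and 63.6% of other calls (odds ratio 1.18, 1.01 to 1.40; adjusted p = 0.158 by Fisher's exact test). The share was 69.2% at lower-ranked distal calls and 67.9% for the sequence that meets the rule. With a single replicate the difference from other calls passed (odds ratio 1.25 for replicate 1 and 1.27 for replicate 2). In the pooled list it passed for the outermost 25% at each chromosome end (1.26), with the first 10000 calls (1.16), with 5′ ends over 2000 bp away (1.30) and against other intergenic calls alone (1.29). With whole intervals outside genes the odds ratio was 0.96, and without chromosome IV it was 0.998 (62.6% against 62.7%), so no excess was seen in those settings. Another call of the first 5000 lay within 2000 bp of 20.3% of members, 21.2% of other calls (odds ratio 0.95, 0.78 to 1.15; adjusted p = 0.802 by Fisher's exact test) and 19.0% of lower-ranked distal calls. Against lower-ranked distal calls the difference passed with replicate 1 alone (odds ratio 1.32) and with replicate 2 alone (1.28).

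The members followed the arrangement of the sequence they could fall in. Of the 841, 451 lay between coding genes in the same direction (53.6%, against 53.3% of the sequence that meets the rule). A further 248 lay between divergent genes (29.5%, against 31.0%) and 141 between convergent genes (16.8%, against 15.6%). The summit was upstream of the nearest coding 5′ end at 572 members (68.0%). The gap between coding genes was 7007 bp long at the median, against 7565 bp around the bases that meet the rule. The nearest gene of any kind was protein-coding at 424 members, a piRNA gene at 188, another non-coding RNA gene (annotated as ncRNA) at 153, a pseudogene at 37 and a small nucleolar RNA gene at 15. The location rule bears on the 68.0% and on these counts, and no share of sequence is given beside them.

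Some gaps held several members. The 840 members between 2 coding genes lay in 695 gaps, of which 110 held more than 1. There were 10 gaps with 4 or more members, 43 members in all. All 10 were longer than 7007 bp, the median length of the gap at members. Longer gaps have more room for members, and the number expected for gaps of such length was not worked out. The counts thus do not show whether members cluster. The gap between uroc-1 and Y51H4A.8 on chromosome IV, 32344 bp long, held 5 members with signals from 23.98 to 43.5. The gap between Y105C5A.1273 and daf-38, also on IV and 28715 bp long, held 5 with signals from 25.1 to 37.1. daf-38 encodes a receptor for dauer pheromone. On chromosome I the gap of 17077 bp between rga-6 and F25F8.1 held 5, from 24.3 to 31.8.

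The members' nearest coding 5′ ends belonged to 726 genes, of which 15 had 3 or more. Among the gene families counted, neuropeptide genes (names in flp, nlp and ins) had 20 members, or 2.38%. They were nearest to 1.43% of the sequence that meets the rule and to 12 of 3258 other calls (0.368%). The strongest of these lay by nlp-40 and ins-13, then by flp-9 (signal 47.5 pooled, 13.1 in replicate 1 and 31.4 in replicate 2) and nlp-47 (41.7, 10.53 and 23.3). Shares were set beside those of sequence because genes differ in the length of the gaps around them.

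Nuclear hormone receptor genes had 22 members (2.62%, against 2.04% of sequence), led by nhr-237, nhr-88, nhr-31 and nhr-46. Chemoreceptor genes had 39 (4.64%, against 5.13%). Genes named unc for uncoordinated movement had 12 (1.43%, against 0.762%), among them unc-51, a kinase of autophagy and axon growth, and unc-17, the vesicular acetylcholine transporter. Genes named lin for cell lineage had 9 (1.07%, against 0.372%), with lin-66 and lin-41 the strongest. Cuticle collagen genes had 7 (0.832%, against 0.689%). Some other families were below their share of sequence. Genes for neurotransmitter and neuropeptide receptors had 7 members (0.832%, against 1.88%), F-box genes 3 (0.357%, against 1.31%), C-type lectin (clec) genes 4 (0.476%, against 0.817%) and ceh homeobox genes 2 (0.238%, against 0.522%). The remaining families had at most 3 members each, apart from egl genes with 5 (0.595%, against 0.505%). Of these families, egl, ugt (2 members, 0.238% against 0.123%) and twk genes (2, 0.238% against 0.165%) were above their share, and the others were below. Among egl genes, egl-18, which encodes a GATA factor, had 3 members at 9066 to 21670 bp upstream, with pooled signals from 23.8 to 37.0.

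Ribosomal protein genes had 0 members, against 35 of the other autosomal calls, and were nearest to 0.250% of the sequence that meets the rule. Histone genes also had 0, against 4 of the other calls. Counts of 0 among 841 allow a share of up to 0.438% (upper limit of the 95% interval). The families are counted by symbol and members are close to more than 1 gene, so these are counts without a test.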

How the data were processed

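The members, gene families and words were chosen with earlier results of these data known. Per the deposited file notes, the authors made each list from alignments of a replicate, or of both pooled, with 1 control file. The thresholded set of 261 peaks came from these lists. The deposited signal values (a column of the caller's lists) ranked the calls of each list and describe them. The aligner, caller and threshold are not given in the sources used here. Each list ended at exactly 30000 calls, so its weaker part does not separate binding from background.

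Coordinates are 1-based on ce11. Genes came from the Ensembl release 115 annotation (46926 genes, 19985 protein-coding), and sequence from RefSeq. Replicate calls were matched within 200 bp of the summit. GC content used 200 bp and words 100 bp. Properties were compared with two-sided Fisher's exact tests, with Benjamini-Hochberg adjustment over 8 property tests, 5 chromosomes or all words, at 0.05. Odds ratios had 0.5 added to each cell, and their intervals and those of shares are exact at 95%. The choice of members used signal, gene positions and distances, so these were not tested. The word test was run on random sequences with the same base composition in both sets, and a planted word ranked first. The property test was run on simulated shares that differed, and it passed. Sets that differ in GC content and calls that lie close together were not simulated. Named members were the 12 strongest and the strongest on each of 5 autosomes. Named words were the 3 with the smallest p in each direction, and up to 4 symbols were named per gene family. Other genes, words and counts were named after their values were seen, as were the gaps, the 3′ ends and the run of overlapping words. Alternatives changed the number of calls, the distances, the windows, the comparison set and the replicate. Lists on ce10 were not used here. The tools were scipy 1.17.1, numpy 2.4.6, pandas 2.3.3, and matplotlib 3.10.9 for plots, in Python 3.11.15.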

Additional observations from a re-analysis of the deposited data

How the results depend on the processing

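No paired analysis was possible because the series has 1 group, so no groups share replicate numbers. Odds ratios are of members against the set named. The main values were 0.59 (GC, other calls) and 0.98 (GC, lower-ranked distal calls), 0.84 and 0.58 (repeats), 1.18 and 0.92 (outside the central part of the chromosome) and 0.95 and 1.09 (neighbouring call), in the same order. A value that crossed 1 without passing a test in either setting shows only that it was near 1 or rested on few calls. Where the location rule was made stricter, members that no longer met it were counted among the other calls. The cause of the changes was not tested.

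With the first 2500 calls, GC was 1.24 against lower-ranked distal calls, repeats were 1.92 and 1.36, the distal share was 19.2%, the share in both replicates was 20.1%, and 0 words were higher and 2 lower. With 10000 calls, the outer parts (1.16) passed, neighbours were 1.09 and 1.21 (1.21 passed), and 5.21% were in both replicates. With the first 1000 (added later), GC was 2.01 against weaker distal calls, repeats were 2.82 and 4.16, outer parts 1.01 against weaker distal calls, and neighbours 0.43 against other calls, which passed. The distal share was 16.5%, 0 words passed in either direction against other calls and 7 were higher than at weaker distal calls, and 1 chromosome, V (0.51), passed against these while IV did not (1.29). Chromosome III was then 1.06 against other calls, and I and III were 1.07 and 1.42 against weaker distal calls.

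With 5′ ends over 500 bp away, GC was 1.07 against lower-ranked distal calls, repeats were 3.20 and 1.23, 0 words passed in either direction and the distal share was 26.6%. Over 2000 bp away, repeats were 1.41 and 1.04, outer parts 1.30 (passed), neighbours 0.97 against lower-ranked distal calls, words 2 higher and 1 lower, and the distal share 13.3%. With the whole interval outside genes, GC was 0.80 and 1.10, repeats 1.33 and outer parts 0.96 against other calls, 0 words and 0 chromosomes passed, III, IV and V were 1.23, 0.89 and 1.17, the distal share was 14.1% and 8.15% were in both replicates. Without chromosome IV (added later), GC was 0.76 and 1.14, outer parts 0.998 against other calls, with 1 word in each direction. Chromosome III was 1.10 against lower-ranked distal calls, and with 10000 calls V was 1.02 and III passed (0.81). Chromosome II did not pass with 2500 (0.85) or 1000 calls (0.77).

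With 1 replicate left out, values ran from 0.68 to 1.06 for GC against lower-ranked distal calls, from 1.25 to 1.27 for outer parts, from 1.02 to 1.20 and from 1.28 to 1.32 for neighbours, from 2 to 10 for words higher and 11 to 15 for words lower than at other calls, from 0 to 2 for words higher than at lower-ranked distal calls, and from 19.2% to 22.2% for the distal share. Against other intergenic calls alone, outer parts were 1.29 (passed), with 50 words higher and 176 lower. Any repeated word gave 0.58 against lower-ranked distal calls (passed), the outermost 25% at each chromosome end 1.26 (passed) and neighbours within 1000 bp 1.17. In windows of 200 bp, 20 words were higher and 42 lower than at other calls, and 1 was higher than at lower-ranked distal calls. Of the members, 6.90% were in both replicates within 100 bp and 55.3% among all 30000 calls. The files give no depth, so no limit of detection can be set.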

Other observations

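A few members lay close to the ends of chromosomes. Within 20000 bp of an end there were 4 of 841 (0.476%), against 0.260% of the sequence that meets the location rule. Beside those by nlp-40 and pot-3, they were a call 3990 bp from the end of chromosome I (signal 8.47 in replicate 1, 38.1 in replicate 2 and 51.2 pooled), 81 bp from the small nucleolar RNA gene Y74C9A.6, and one 7650 bp from the end of chromosome IV (17.2 in replicate 1, 9.39 in replicate 2 and 26.5 pooled) between rabr-2 and nas-6. Small nucleolar RNA genes had a 5′ end within 500 bp of 8 members (0.951%, 0.412 to 1.87), against 0.292% of such sequence, and genes annotated as ncRNA at 54 (6.42%, 4.86 to 8.30), against 6.18%. These counts were chosen after their values were seen and have no test.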
